A study of Mus musculus with 21 samples.

Results

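Genes of the stratified squamous epithelium were followed through the glandular stomach of transgenic mice that carry the prostaglandin E2, Wnt and BMP pathway transgenes of gastric tumor models. The 37 genes are known components of squamous layers and of cornification, listed by that role with earlier results of these data known. They were placed in a basal layer (9 genes), a spinous layer (17 genes) and a cornified layer (11 genes) by where they are best known to act. Dsg3, a basal desmosomal cadherin, had no probe set annotated to it alone, so 36 of the 37 were measured, among 18193 genes in all. Each gene is represented by the brightest probe set that the array annotation ties to that gene only.

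The samples were glandular stomachs of single mice, labelled C57BL/6 and female and aged 18 to 65 weeks, each on an Affymetrix mouse array of its own, 21 in total. K19-C2mE mice (n = 3) express the COX-2 and mPGES-1 enzymes, which together make prostaglandin E2, and the study describes hyperplastic tumors in them. K19-Wnt1/C2mE mice (n = 5) add the ligand Wnt1 and are described with dysplastic tumors, and K19-Nog/C2mE mice (n = 3) add noggin, a secreted antagonist of BMP ligands, and are described with hamartomas. K19-Wnt1 mice (n = 5) and K19-Nog mice (n = 2) carry the second transgene without C2mE, and wild-type mice (n = 3) carry none. In every transgenic genotype the K19 (Krt19) promoter drives the transgene, so expression is directed to gastric epithelium. Values are log2 of the array signal, on which 1 unit is a 2-fold difference, given with the SD of the mice of a genotype or the SE of a change. A change was called where limma gave an adjusted p under 0.05 (Benjamini-Hochberg over the 18193 genes).

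Stratified squamous epithelium renews from a basal layer, which sits on the basement membrane, expresses the transcription factor p63 (Trp63) and the keratin pair Krt5 and Krt14, and divides. Cells that leave it switch to other keratins, Krt1 and Krt10 in epidermis and Krt4 and Krt13 in the mucosa of mouth and oesophagus, and strengthen their desmosomes. In the outermost layers transglutaminases cross-link involucrin (Ivl), loricrin (Lor), small proline-rich proteins (Sprr genes), envoplakin and periplakin into the cornified envelope. In the mouse, squamous epithelium lines the forestomach and oesophagus, whereas the glandular stomach is lined by a simple columnar epithelium of mucous, parietal, chief and endocrine cells.

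The 6 genes listed for parietal cells of the glandular stomach were Atp4a, Atp4b, Kcne2, Slc26a7, Kcnq1 and Cblif. Their summed signal was 75111 to 78217 in wild-type mice, and the part of other gastric cells in that sum was not tested. Array medians lay between 65.96 and 68.76 signal units, and arrays of 1 genotype correlated with r of 0.983 to 0.996. Signal of 3 Y-linked genes was high in 9 of 21 arrays against the female label: 2 were K19-C2mE arrays, 1 was K19-Wnt1/C2mE, 4 were K19-Wnt1 and 2 were wild-type. Without those 9 arrays, wild-type 2 alone is left of its genotype, a stomach that stands apart for the squamous genes. That left 2 of 36 squamous genes called in K19-C2mE against wild-type, whereas 32 were called with all arrays and Y-linked signal added as a covariate. In tissue RNA, fewer squamous cells and less RNA per squamous cell cannot be told apart.

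The squamous genes were higher in K19-C2mE than in wild-type stomachs across all layers, in part in K19-Wnt1/C2mE stomachs, and with few exceptions not in K19-Nog/C2mE stomachs. In K19-C2mE 31 of 36 genes rose against wild-type, beside 15.4% of all genes, and the median change was 3.11 (all genes, -0.02). In K19-Wnt1/C2mE 15 of 36 rose against wild-type, beside 21.1% of all genes, with a median of 1.10 (all genes, -0.04). In K19-Nog/C2mE 5 of 36 rose, beside 16.0% of all genes, and the median was -0.23 (all genes, -0.02). On its brightest probe set, none fell in these 3 comparisons, in which 13.7%, 22.5% and 16.6% of all genes fell. The comparisons share the 3 wild-type arrays. Without wild-type 3 the K19-Wnt1/C2mE count was 9. The signal of every K19-C2mE mouse was above that of every wild-type mouse for 30 of the 36 genes, a pattern that 24.2% of all genes had (15.4% were called). In K19-Wnt1/C2mE all mice were above all wild-type mice for 7 of the 36, or 19.4%, close to the 20.3% of all genes. All K19-Nog/C2mE mice were above all wild-type mice for 5 genes (13.9%) and below them for 7 (19.4%), while 23.4% of all genes lay above and 25.8% below.

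**Figure D1:**
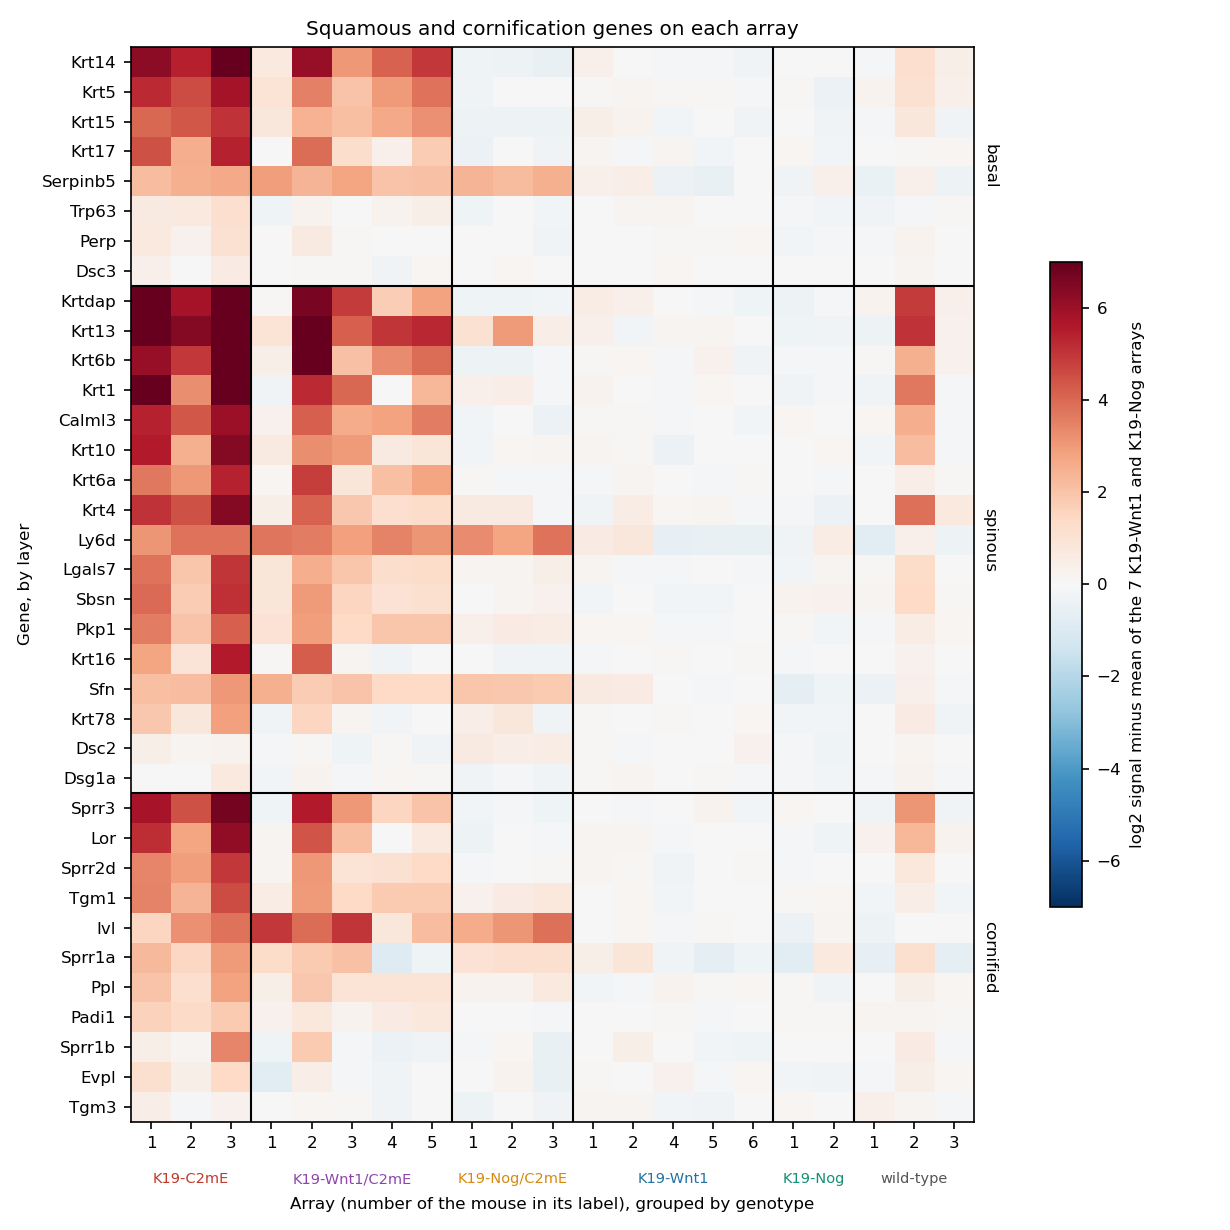
Each row is a gene, grouped by layer, and each column an array; colour gives the log2 signal minus the mean of the 7 K19-Wnt1 and K19-Nog arrays, with the scale ending at 7 units either way. The red block covers all layers in K19-C2mE mice, is uneven among the 5 K19-Wnt1/C2mE mice, shrinks to Serpinb5, Ly6d, Sfn and Ivl in K19-Nog/C2mE mice, and reappears without most basal genes in wild-type 2.

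Of the 8 basal genes measured, 7 rose in K19-C2mE (median change 3.33), 4 rose in K19-Wnt1/C2mE (1.72) and 1 rose in K19-Nog/C2mE (-0.20). Krt14 (probe set 1423935_x_at), the type I keratin of basal cells, had 11.19, 10.36 and 12.32 in K19-C2mE mice and 5.59, 11.00, 7.93, 9.02 and 9.87 in K19-Wnt1/C2mE mice, against 4.76, 6.06 and 5.31 in wild-type mice. It had 4.63, 4.55 and 4.40 in K19-Nog/C2mE mice. All K19-C2mE mice were above all wild-type mice, the K19-Wnt1/C2mE mice were above them except mouse 1, and the K19-Nog/C2mE mice were below them. The change against wild-type was 5.91 (adjusted p = 2.77e-05, SE 0.84) in K19-C2mE and 3.30 (adjusted p = 0.00153, SE 0.75) in K19-Wnt1/C2mE. The K19-Nog/C2mE change was -0.85 (SE 0.84), which did not pass the test (adjusted p = 0.473). The dimmer Krt14 probe set 1460347_at changed by 4.88 (SE 0.75) in K19-C2mE and 2.27 (SE 0.67) in K19-Wnt1/C2mE. Another dimmer one, 1455573_at, changed by 0.49 (SE 0.18) and 0.08 (SE 0.16) in that order and passed the test in neither.

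Krt5 (1424096_at), the type II partner of Krt14, had 11.01, 10.39 and 11.64 in K19-C2mE mice and 6.73, 9.35, 7.79, 8.79 and 9.62 in K19-Wnt1/C2mE mice, against 6.07, 6.84 and 6.18 in wild-type mice. It had 5.58, 5.85 and 5.76 in K19-Nog/C2mE mice. As for Krt14, the only K19-Wnt1/C2mE mouse within the wild-type range was mouse 1. Krt5 changed by 4.65 (adjusted p = 1.06e-06, SE 0.50) in K19-C2mE and by 2.09 (adjusted p = 0.000871, SE 0.45) in K19-Wnt1/C2mE. Krt15 (1422667_at), a keratin of basal cells with progenitor features, had 9.43, 9.78 and 10.47 in K19-C2mE mice and 6.19, 7.86, 7.52, 8.05 and 8.63 in K19-Wnt1/C2mE mice, against 5.34, 6.23 and 5.19 in wild-type mice. Its 3 K19-Nog/C2mE values were all 5.03, and again only K19-Wnt1/C2mE 1 overlapped the wild-type mice. The change was 4.31 (adjusted p = 3.04e-07, SE 0.41) in K19-C2mE and 2.06 (adjusted p = 0.000174, SE 0.37) in K19-Wnt1/C2mE.

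Krt17 (1423227_at), a keratin induced in wounded and hyperproliferative epithelium, had 8.57, 6.65 and 9.50 in K19-C2mE mice and 4.13, 8.02, 5.34, 4.46 and 5.87 in K19-Wnt1/C2mE mice, against 4.12, 4.19 and 4.24 in wild-type mice. It had 3.69, 4.15 and 3.83 in K19-Nog/C2mE mice. K19-Wnt1/C2mE 2 was within the K19-C2mE range, and the other four K19-Wnt1/C2mE mice were not. Krt17 rose by 4.05 (adjusted p = 0.000218, SE 0.70) in K19-C2mE, while its change in K19-Wnt1/C2mE was 1.38 (adjusted p = 0.083, SE 0.63). A dimmer Krt17 probe set (1420193_at) did not show the rise, with a change of -0.07 (SE 0.14) in K19-C2mE. In K19-Wnt1/C2mE that probe set changed by -0.42 (SE 0.13) and passed the test as lower.

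Trp63 encodes p63, the transcription factor that specifies the basal layer. On the brightest probe set (1451876_a_at) it had 6.57, 6.62 and 7.13 in K19-C2mE mice and 5.64, 6.17, 5.94, 6.20 and 6.34 in K19-Wnt1/C2mE mice, against 5.68, 5.83 and 6.01 in wild-type mice, and 5.67, 5.94 and 5.75 in K19-Nog/C2mE mice. The K19-C2mE mice did not overlap the wild-type mice, and the rise was 0.93 (adjusted p = 0.000186, SE 0.16). The size depended on the probe set: the 3 others of Trp63 changed by 1.09, 1.55 and 4.10 in K19-C2mE, the last (1418158_at) also by 1.67 (SE 0.41) in K19-Wnt1/C2mE, where the brightest one changed by 0.22. Perp, a desmosomal protein and p63 target that simple epithelia also express, rose by 0.66 (adjusted p = 0.00743, SE 0.17) in K19-C2mE. Dsc3, a basal desmosomal cadherin, did not pass the test on its brightest probe set (change 0.26, adjusted p = 0.106), whereas a dimmer one (1434534_at) rose by 2.04 (SE 0.44).

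Of the 17 spinous genes, 15 rose in K19-C2mE (median change 3.81), 7 in K19-Wnt1/C2mE (1.15) and 3 in K19-Nog/C2mE (-0.22). Krtdap (1434227_at), a secreted protein of differentiating keratinocytes, had 12.24, 10.09 and 13.03 in K19-C2mE mice and 4.31, 10.91, 9.12, 5.95 and 7.04 in K19-Wnt1/C2mE mice, against 4.48, 9.12 and 4.59 in wild-type mice. It had 3.96, 3.96 and 4.05 in K19-Nog/C2mE mice. The 3 K19-C2mE mice were above every wild-type mouse, wild-type 2 was as high as K19-Wnt1/C2mE 3, and the K19-Nog/C2mE mice were below every wild-type mouse. Krtdap rose by 5.73 (adjusted p = 0.0021, SE 1.27) in K19-C2mE, and its change of 1.41 (SE 1.14) in K19-Wnt1/C2mE did not pass the test (adjusted p = 0.335).

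Krt13 (1422454_at), the type I keratin of spinous cells in oesophagus and mouth, had 12.47, 11.54 and 13.34 in K19-C2mE mice and 6.05, 12.17, 9.27, 10.12 and 10.37 in K19-Wnt1/C2mE mice, against 4.73, 10.15 and 5.39 in wild-type mice. In K19-Nog/C2mE it had 6.14, 8.08 and 5.55, with mouse 2 the highest. Wild-type 2 overlapped the K19-Wnt1/C2mE range and not the K19-C2mE range. The rise was 5.70 (adjusted p = 0.00162, SE 1.23) in K19-C2mE and 2.84 (adjusted p = 0.0431, SE 1.10) in K19-Wnt1/C2mE, but the K19-Wnt1/C2mE call was lost (adjusted p = 0.0537 to 0.253) without wild-type 1, wild-type 3 or any of K19-Wnt1/C2mE 2 to 5. Krt6b (1422588_at), a keratin induced by wounding, had 11.65, 10.50 and 13.10 in K19-C2mE mice and 5.97, 12.73, 7.60, 8.82 and 9.44 in K19-Wnt1/C2mE mice, against 5.59, 8.04 and 5.86 in wild-type mice, and 5.17, 5.17 and 5.43 in K19-Nog/C2mE mice. Only in K19-C2mE was every mouse above wild-type 2. Krt6b rose by 5.25 (adjusted p = 0.000979, SE 1.07) in K19-C2mE and by 2.41 (adjusted p = 0.0475, SE 0.96) in K19-Wnt1/C2mE.

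Krt1 (1422481_at), the type II keratin of spinous cells in epidermis, had 12.73, 8.26 and 13.16 in K19-C2mE mice and 4.80, 10.26, 9.04, 5.03 and 7.34 in K19-Wnt1/C2mE mice, against 4.78, 8.70 and 4.94 in wild-type mice. It had 5.41, 5.49 and 4.92 in K19-Nog/C2mE mice. K19-C2mE 2 lay below wild-type 2, so these genotypes overlapped, although Krt1 rose by 5.24 (adjusted p = 0.00477, SE 1.30). In K19-Wnt1/C2mE its change was 1.15 (adjusted p = 0.443, SE 1.16).

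Keratins work as pairs of a type I and a type II chain. In K19-C2mE both partners of each spinous pair rose, Krt1 by 5.24 and Krt10 by 4.23, and Krt4 by 3.82 and Krt13 by 5.70. The wound keratins Krt6a, Krt6b and Krt16 rose by 3.85, 5.25 and 2.96. In K19-Wnt1/C2mE some partners lay on either side of the threshold: Krt13 rose by 2.84 while Krt4 changed by 0.28 (adjusted p = 0.783, SE 0.74), and Krt6a rose by 1.99 while Krt16 changed by 0.76 (adjusted p = 0.49, SE 0.85). The difference between partners was not tested, and for Krt13 and Krt4 it depended on the probe set. In K19-Wnt1/C2mE the dimmer Krt13 probe sets 1437344_x_at and 1441863_x_at changed by 0.81 (SE 0.59) and 1.04 (SE 0.59). The dimmer Krt4 probe set 1418735_at changed by 1.07 (SE 0.82), and none of these passed the test. Probe sets of near-identical keratins and Sprr genes can take up RNA of a paralog, and a probe set that the annotation gives to both Krt14 and Krt17 was not used.

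Desmosomal parts split. Plakophilin 1 (Pkp1), which stiffens desmosomes in suprabasal cells, rose by 3.07 (adjusted p = 1.95e-05, SE 0.42) in K19-C2mE and by 1.68 (adjusted p = 0.00143, SE 0.38) in K19-Wnt1/C2mE. The cadherin Dsg1a was dim, between 2.91 and 3.86 on all C2mE arrays, and passed no test (change 0.22 in K19-C2mE, adjusted p = 0.296). Dsc2 (1426911_at), a cadherin of simple as well as stratified epithelia, was the only gene called in K19-Nog/C2mE and in neither other C2mE genotype. It had 11.08, 10.90 and 10.94 in K19-Nog/C2mE mice, against 10.38, 10.61 and 10.39 in wild-type mice, with no overlap and a rise of 0.52 (adjusted p = 0.00202, SE 0.12). In the other C2mE genotypes it had 10.86, 10.63 and 10.69 (K19-C2mE) and 10.34, 10.51, 10.15, 10.53 and 10.17 (K19-Wnt1/C2mE). A second Dsc2 probe set (1421156_a_at) changed by 0.83 in K19-Nog/C2mE, 0.65 in K19-C2mE and 0.37 in K19-Wnt1/C2mE.

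Further spinous genes called in K19-C2mE, beside Sfn and Ly6d, were Calml3, a calmodulin-like protein of keratinocytes (4.38), Lgals7, the squamous galectin-7 (3.14), Sbsn, suprabasin (3.08), and the type II keratin Krt78 (1.76). Of these, Calml3 also rose in K19-Wnt1/C2mE, by 1.84 (adjusted p = 0.0262, SE 0.64).

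Of the 11 cornified genes, 9 rose in K19-C2mE (median change 2.28), 4 in K19-Wnt1/C2mE (0.82) and 1 in K19-Nog/C2mE (-0.24). Sprr3 (1422401_at), a small proline-rich protein abundant in oesophagus, had 11.84, 10.55 and 12.81 in K19-C2mE mice and 5.79, 11.62, 9.12, 7.59 and 8.10 in K19-Wnt1/C2mE mice, against 5.84, 9.20 and 5.87 in wild-type mice, and 5.90, 5.98 and 5.80 in K19-Nog/C2mE mice. The K19-C2mE mice did not overlap the wild-type mice, and wild-type 2 was above 4 of the 5 K19-Wnt1/C2mE mice. The rise in K19-C2mE was 4.76 (adjusted p = 0.00134, SE 1.0), and the change in K19-Wnt1/C2mE was 1.47 (adjusted p = 0.197, SE 0.90).

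Lor (1420183_at) encodes loricrin, the main protein of the epidermal cornified envelope. It had 11.41, 9.02 and 12.47 in K19-C2mE mice and 6.48, 10.68, 8.35, 6.22 and 6.93 in K19-Wnt1/C2mE mice, against 6.57, 8.60 and 6.53 in wild-type mice, and 5.92, 6.24 and 6.15 in K19-Nog/C2mE mice. K19-Nog/C2mE mice were below all wild-type mice and K19-C2mE mice above them. Lor rose by 3.74 (adjusted p = 0.00373, SE 0.89) in K19-C2mE, and its change was 0.50 (adjusted p = 0.643, SE 0.80) in K19-Wnt1/C2mE. Dimmer Lor probe sets differed: 1448745_s_at changed by 5.55 (SE 1.36) in K19-C2mE and 1420184_at by -0.07 (SE 0.15). In K19-Nog/C2mE 1420184_at changed by -0.47 (SE 0.15) and passed the test as lower, and 1448745_s_at changed by -1.82 (SE 1.36) without passing. In K19-Wnt1/C2mE 1420184_at changed by -0.40 (SE 0.13) and passed as lower, and 1448745_s_at changed by 1.57 (SE 1.21) without passing. Sprr2d (1420771_at), another small proline-rich envelope precursor, had 9.37, 8.84 and 10.86 in K19-C2mE mice and 6.14, 8.94, 6.91, 6.98 and 7.32 in K19-Wnt1/C2mE mice, against 5.91, 6.67 and 5.98 in wild-type mice. It had 5.80, 5.92 and 6.02 in K19-Nog/C2mE mice and was clear of the wild-type range in all K19-C2mE mice. Its rise in K19-C2mE was 3.50 (adjusted p = 2.78e-05, SE 0.50), and its change in K19-Wnt1/C2mE was 1.07 (adjusted p = 0.059, SE 0.45).

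Among the enzymes and plakins, Tgm1 (1451416_a_at), the membrane-bound transglutaminase of keratinocytes, had 7.66, 6.61 and 8.78 in K19-C2mE mice and 4.74, 7.20, 5.62, 6.04 and 6.05 in K19-Wnt1/C2mE mice, against 4.05, 4.67 and 4.01 in wild-type mice. It had 4.53, 4.78 and 4.95 in K19-Nog/C2mE mice. Every K19-Wnt1/C2mE mouse was above every wild-type mouse, including mouse 1. Tgm1 rose by 3.44 (adjusted p = 1.29e-05, SE 0.46) in K19-C2mE and by 1.69 (adjusted p = 0.00255, SE 0.41) in K19-Wnt1/C2mE. Tgm3, the second transglutaminase on the list, changed by 0.06 (adjusted p = 0.804) in K19-C2mE. Periplakin (Ppl) and the peptidylarginine deiminase Padi1 rose in both genotypes, by 1.79 and 1.42 in K19-C2mE and by 0.82 and 0.35 in K19-Wnt1/C2mE. Envoplakin (Evpl) rose by 0.82 in K19-C2mE only, and Sprr1a by 2.28, while Sprr1b changed by 1.18 (adjusted p = 0.165) with only K19-C2mE 3 clearly higher, at 7.18 against 4.19 and 3.96 in the other two K19-C2mE mice.

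**Figure D2:**
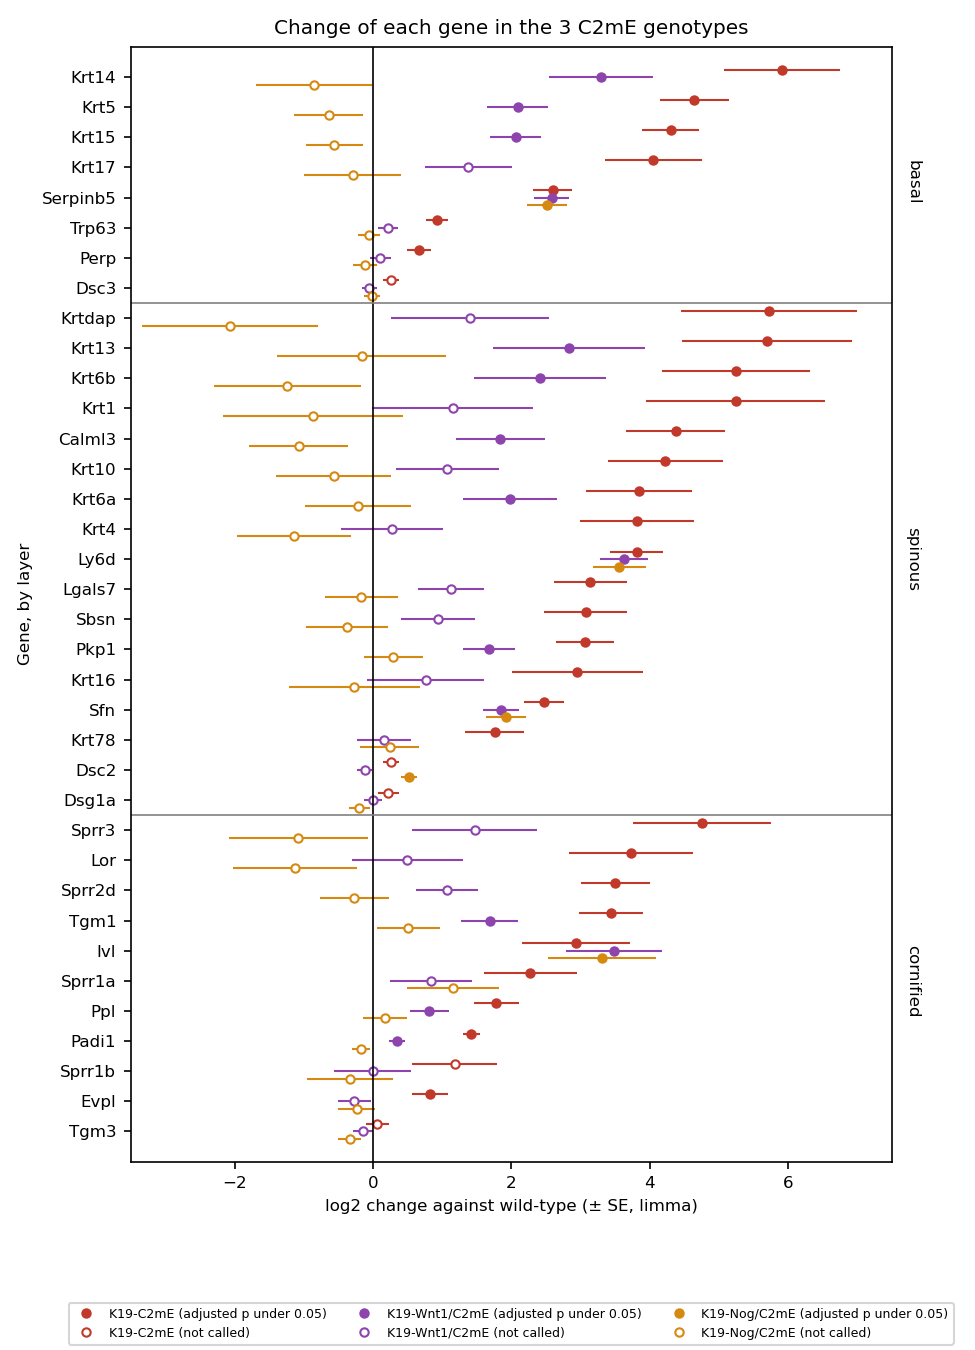
Points give each gene's log2 change against wild-type and lines its SE from limma, in the 3 C2mE genotypes; filled points had an adjusted p under 0.05. In each layer the K19-C2mE points lie farthest to the right for most genes, and only Serpinb5, Ly6d, Sfn and Ivl have 3 filled points.

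Serpinb5, Sfn, Ly6d and Ivl were the 4 genes called in all 3 C2mE genotypes, 1 basal, 2 spinous and 1 cornified. Of all genes 15.4% rose in K19-C2mE, 21.1% in K19-Wnt1/C2mE and 16.0% in K19-Nog/C2mE. The share of all genes that rose in all 3 was not computed, so the 4 cannot be compared with other genes by count. Ly6d (1416930_at), a GPI-anchored surface protein first known in squamous cells and lymphocytes, had 12.51, 13.23 and 13.22 in K19-C2mE mice and 13.20, 13.02, 12.32, 12.93 and 12.51 in K19-Wnt1/C2mE mice, against 8.69, 9.78 and 9.05 in wild-type mice. It had 12.75, 12.20 and 13.25 in K19-Nog/C2mE mice. The 3 C2mE genotypes overlapped each other and none overlapped wild-type. Its rises were 3.81 (SE 0.39) in K19-C2mE, 3.63 (SE 0.35) in K19-Wnt1/C2mE and 3.56 (SE 0.39) in K19-Nog/C2mE, with adjusted p = 5.74e-07, 8.54e-08 and 8.64e-07.

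Serpinb5 (1421752_a_at), which encodes maspin, had 10.25, 10.60 and 10.74 in K19-C2mE mice, 11.01, 10.49, 10.87, 10.06 and 10.14 in K19-Wnt1/C2mE mice and 10.45, 10.30 and 10.60 in K19-Nog/C2mE mice, against 7.61, 8.44 and 7.74 in wild-type mice. Sfn (1448612_at), the cell cycle regulator 14-3-3 sigma, had 9.91, 9.93 and 10.80 in K19-C2mE mice, 10.26, 9.57, 9.77, 9.15 and 9.20 in K19-Wnt1/C2mE mice and 9.71, 9.68 and 9.62 in K19-Nog/C2mE mice, against 7.36, 8.15 and 7.72 in wild-type mice. For both genes all 11 C2mE mice were above all wild-type mice. In the same order of genotypes Serpinb5 rose by 2.60, 2.58 and 2.52, and Sfn by 2.47, 1.85 and 1.93, with SEs of 0.25 to 0.29 and adjusted p from 1.35e-07 to 3.78e-05.

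Ivl (1439878_at), an early envelope precursor, had 6.10, 7.81 and 8.40 in K19-C2mE mice, 9.56, 8.52, 9.61, 5.42 and 6.79 in K19-Wnt1/C2mE mice and 7.23, 7.73 and 8.47 in K19-Nog/C2mE mice, against 4.27, 4.59 and 4.63 in wild-type mice. Its highest signals were in K19-Wnt1/C2mE 1 and 3, although K19-Wnt1/C2mE 1 had the lowest Krt5, Krt14, Krt13 and Krtdap of that genotype. The rises were 2.94 (adjusted p = 0.00789, SE 0.78) in K19-C2mE, 3.48 (adjusted p = 0.00051, SE 0.70) in K19-Wnt1/C2mE and 3.32 (adjusted p = 0.00288, SE 0.78) in K19-Nog/C2mE. A dimmer Ivl probe set (1422222_at) changed by 1.02 (SE 0.52) in K19-C2mE and by 1.25 (SE 0.52) in K19-Nog/C2mE, and passed the test in neither. In K19-Wnt1/C2mE the dimmer probe set rose by 1.55 (SE 0.47) and passed. Wild-type 2, the wild-type mouse with high spinous keratins, had an Ivl signal between those of the other wild-type mice.

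**Figure D3:**
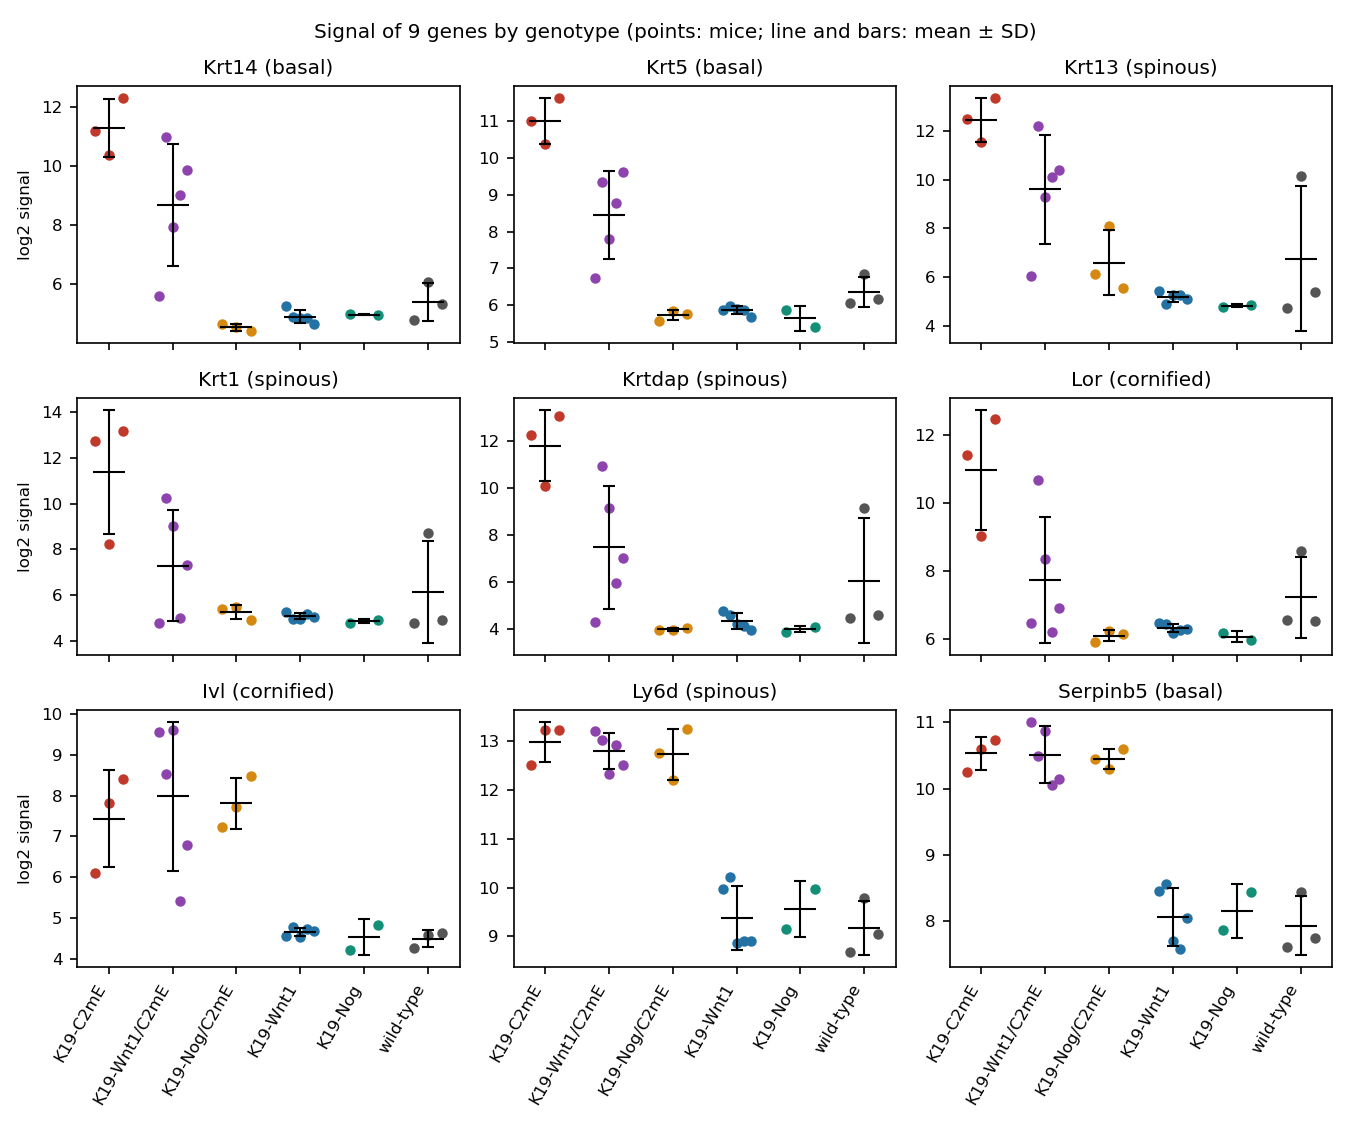
Each point is a mouse, with the log2 signal on the y axis and the genotype on the x axis; the long line is the mean and the bars the SD. Krt14, Krt5, Krt13, Krt1, Krtdap and Lor are high in K19-C2mE, scattered in K19-Wnt1/C2mE and low in K19-Nog/C2mE mice, whereas Ivl, Ly6d and Serpinb5 are high in all 3 of these genotypes.

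The promoters of 6 genes from the groups above are shown because those groups differ in the genotypes where they were called. Ivl and Serpinb5 were called in all 3 C2mE genotypes, Krt5 in K19-C2mE and K19-Wnt1/C2mE, and Lor, Sprr1a and Sprr3 in K19-C2mE only. Each sequence is the 250 bases before the annotated gene start in RefSeq (mouse build GRCm38.p6), read 5′ to 3′ along the gene's strand. Capitals mark matches on either strand to TGANTCA (bound by AP-1 factors), TATAAA (the TATA box) or GGGTGG (bound by KLF factors).
Ivl (chr3:92573736-92573985, minus strand): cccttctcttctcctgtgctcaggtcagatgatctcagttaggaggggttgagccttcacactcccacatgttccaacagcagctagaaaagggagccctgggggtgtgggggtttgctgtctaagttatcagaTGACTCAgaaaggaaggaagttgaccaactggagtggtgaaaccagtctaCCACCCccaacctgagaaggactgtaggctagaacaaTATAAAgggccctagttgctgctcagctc
Serpinb5 (chr1:106860925-106861174, plus strand): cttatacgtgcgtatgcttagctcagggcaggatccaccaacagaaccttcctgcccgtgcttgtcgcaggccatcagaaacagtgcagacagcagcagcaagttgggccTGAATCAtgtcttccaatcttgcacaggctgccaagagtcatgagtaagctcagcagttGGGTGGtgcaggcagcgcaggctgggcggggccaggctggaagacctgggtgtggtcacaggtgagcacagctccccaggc
Krt5 (chr15:101712906-101713155, minus strand): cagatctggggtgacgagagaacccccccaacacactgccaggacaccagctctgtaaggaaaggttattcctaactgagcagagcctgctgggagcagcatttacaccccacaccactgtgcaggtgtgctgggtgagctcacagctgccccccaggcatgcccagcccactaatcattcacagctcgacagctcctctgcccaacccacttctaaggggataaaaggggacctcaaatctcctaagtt
Lor (chr3:92083143-92083392, minus strand): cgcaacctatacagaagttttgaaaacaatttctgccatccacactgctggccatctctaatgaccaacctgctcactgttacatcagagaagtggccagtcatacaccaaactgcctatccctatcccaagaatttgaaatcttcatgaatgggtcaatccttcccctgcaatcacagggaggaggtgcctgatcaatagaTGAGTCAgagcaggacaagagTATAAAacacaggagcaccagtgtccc
Sprr1a (chr3:92485882-92486131, minus strand): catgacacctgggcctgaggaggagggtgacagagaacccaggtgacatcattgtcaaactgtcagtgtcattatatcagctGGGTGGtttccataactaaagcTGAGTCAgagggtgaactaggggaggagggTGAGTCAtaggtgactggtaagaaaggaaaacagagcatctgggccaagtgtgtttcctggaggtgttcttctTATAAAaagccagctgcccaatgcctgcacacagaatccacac
Sprr3 (chr3:92458721-92458970, minus strand): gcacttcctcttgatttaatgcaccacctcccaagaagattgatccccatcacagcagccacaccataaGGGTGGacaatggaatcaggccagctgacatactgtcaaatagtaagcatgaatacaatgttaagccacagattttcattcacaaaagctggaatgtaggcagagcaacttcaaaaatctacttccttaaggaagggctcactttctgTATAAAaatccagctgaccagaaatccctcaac
In the Ivl promoter the AP-1 match began 116 bases, the KLF match 66 bases and the TATA match 29 bases before the start. The Lor promoter had its AP-1 match 48 and its TATA match 27 bases before the start, and the Sprr1a promoter held AP-1 matches at 146 and 116 bases. The Krt5 window held none of these letters. Promoters were at hand for 19 of the 37 genes. AP-1 letters stood in 9 of those 19 (47.4%), against 7.82% of 27025 promoters of all genes, TATA letters in 9 (47.4%), against 14.3%, and KLF letters in 12 (63.2%), against 30.6%. Several of the 37 genes share a chromosome with listed genes that resemble them. Lor, Sprr2d, Sprr1b, Sprr3, Sprr1a and Ivl lie in this order on 1 chromosome of that build. So do 6 type I keratins (Krt10, Krt13, Krt15, Krt14, Krt16, Krt17) and 6 type II keratins (Krt6b, Krt6a, Krt5, Krt1, Krt4, Krt78) on others. The order is that of the listed genes only. Listed genes of 1 chromosome did not all have the same calls. Ivl was called in all 3 C2mE genotypes, and Sprr1a, Sprr3 and Lor in K19-C2mE only. Sprr1a changed by 0.84 (SE 0.60) in K19-Wnt1/C2mE and by 1.15 (SE 0.67) in K19-Nog/C2mE without passing the test. The difference between these genes was not tested.

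Mice of the same genotype differed more for squamous genes in K19-C2mE, K19-Wnt1/C2mE and wild-type than in the other genotypes. The mean log2 signal over the 36 genes was 9.60 ± 0.93 in K19-C2mE mice (SD, n = 3), 7.83 ± 0.88 in K19-Wnt1/C2mE mice (n = 5) and 6.59 ± 0.09 in K19-Nog/C2mE mice (n = 3). It was 6.24 ± 0.11 in K19-Wnt1 mice (n = 5), 6.14 ± 0.04 in K19-Nog mice (n = 2) and 6.60 ± 0.72 in wild-type mice (n = 3). A gene was counted as high on an array when it was more than 1 unit above the highest of the 7 K19-Wnt1 and K19-Nog arrays. The share of all genes that was high by this rule was not computed. These counts therefore compare arrays with each other, and not the squamous genes with other genes. By that count 28, 24 and 30 of the 36 genes were high in the K19-C2mE mice, and 4, 27, 22, 14 and 18 in K19-Wnt1/C2mE mice 1 to 5. The K19-Nog/C2mE mice had 4, 5 and 4 high genes, and wild-type 1, 2 and 3 had 0, 11 and 0. The 4 genes of K19-Wnt1/C2mE 1 were Serpinb5, Sfn, Ly6d and Ivl, the same as in K19-Nog/C2mE 1 and 3, with Krt13 added in K19-Nog/C2mE 2.

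The layers did not keep the same proportion in every mouse. Measured from the mean of the K19-Wnt1 and K19-Nog arrays, the basal genes averaged 2.98, 2.56 and 3.65 units and the cornified genes 2.47, 1.82 and 3.54 units in the K19-C2mE mice. In K19-Wnt1/C2mE mice 4 and 5 the basal genes averaged 1.52 and 2.03 and the cornified genes 0.44 and 0.84, with only Sprr3 and Tgm1 high among cornified genes in mouse 4. K19-Wnt1/C2mE mice 2 and 3 had basal averages of 2.42 and 1.41 and cornified averages of 2.43 and 1.42. The spinous genes averaged 4.15, 2.84 and 5.14 units in the K19-C2mE mice. In K19-Wnt1/C2mE mice 2 to 5 they averaged 3.68, 1.95, 1.5 and 1.86 units. Thus basal genes exceeded cornified ones by over 1 unit in K19-Wnt1/C2mE 4 and 5. Basal and cornified genes were level in K19-Wnt1/C2mE 2 and 3, where spinous genes averaged higher than both. These are differences within each probe set averaged over a layer, and the difference between layers was not tested.

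Wild-type 2 differed from the other wild-type mice mainly in the suprabasal layers. There 9 of 17 spinous genes (Krt1, Krt10, Krt4, Krt13, Krt6b, Krtdap, Sbsn, Calml3 and Lgals7) and 2 of 11 cornified genes (Lor and Sprr3) were high, but 0 of 8 basal genes. Krtdap was at 9.12 and Krt13 at 10.15 in this mouse. Some basal keratins were also above the other wild-type mice, by less than the 1-unit rule asks. Krt14 was at 6.06 (others 4.76 and 5.31), Krt5 at 6.84 (6.07 and 6.18) and Krt15 at 6.23 (5.34 and 5.19). Krt17 at 4.19 and Trp63 at 5.83 lay between the other wild-type mice. The 8 basal genes averaged 6.71 in this mouse, against 6.14 and 6.29 in the other wild-type mice. The 11 cornified genes averaged 7.05 in this mouse and 6.13 in each of the other wild-type mice. Genes outside the 37 were higher too: 27 further cornified genes averaged 6.38 in this mouse, against 5.18 and 5.28 in the other wild-type mice, and 11 squamous proteases and inhibitors 4.81, against 4.40 and 4.44. Leaving this array out gave 31 genes higher in K19-C2mE, 18 in K19-Wnt1/C2mE and 5 in K19-Nog/C2mE than in the remaining wild-type mice.

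Some calls against wild-type rested on single arrays. In K19-C2mE, Krt16 lost its call without K19-C2mE 3 (adjusted p = 0.172), wild-type 1 (0.0655) or wild-type 3 (0.0621), and Sprr1a without the same arrays (0.0737, 0.0628 and 0.0687). Evpl lost it without K19-C2mE 1 (0.0725), K19-C2mE 3 (0.137), wild-type 1 (0.0981) or wild-type 3 (0.0645), and Perp without K19-C2mE 3 (0.0587). In K19-Wnt1/C2mE, Krt6b, Calml3 and Ppl lost their calls without K19-Wnt1/C2mE 2 (adjusted p = 0.0929, 0.0651 and 0.0663), without wild-type 1 (0.181, 0.128 and 0.0977) and without wild-type 3 (0.155, 0.157 and 0.0805). Krt6b also lost it without K19-Wnt1/C2mE 4 (0.0659) or 5 (0.0799), and Calml3 without 5 (0.0588). Krt6a lost it without wild-type 1 (0.078) or 3 (0.0682), and Padi1 without wild-type 3 (0.063).

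**Figure D4:**
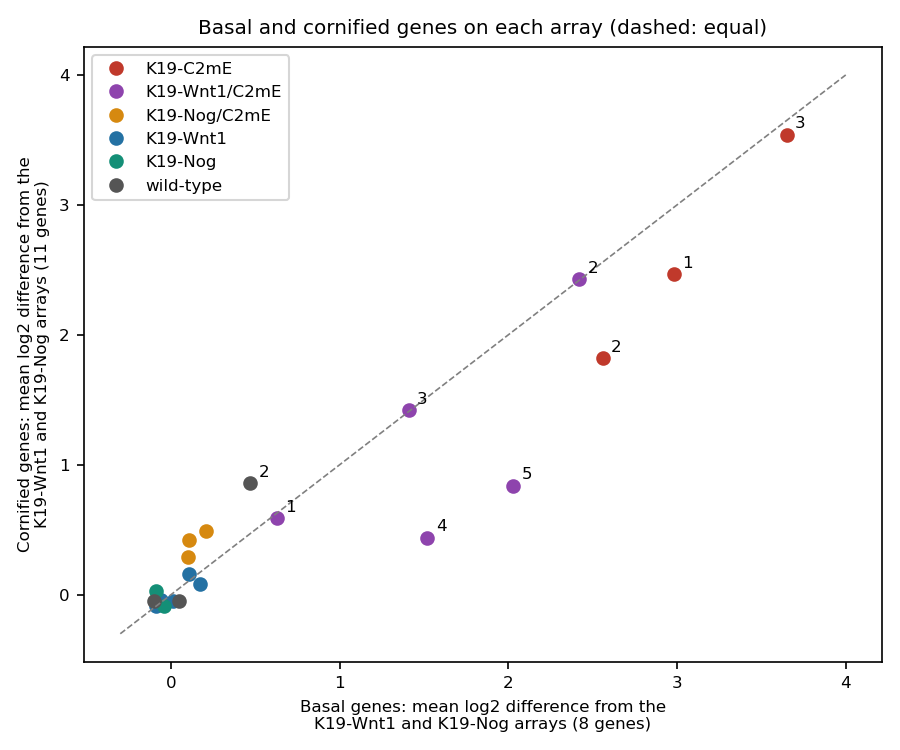
Each point is an array: the x axis gives the mean log2 difference of the 8 basal genes and the y axis that of the 11 cornified genes, both from the mean of the K19-Wnt1 and K19-Nog arrays; numbers are mouse numbers and the dashed line marks equal differences. K19-Wnt1/C2mE 4 and 5 lie farthest below the line, at cornified values of 0.44 and 0.84, and wild-type 2 lies above it.

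Against K19-C2mE stomachs, the addition of either second transgene went with lower squamous genes. In K19-Nog/C2mE 24 of 36 genes fell against K19-C2mE, beside 2.13% of all genes, and none rose (0.561% of all genes), with a median difference of -3.08. By layer, 6 basal, 11 spinous and 7 cornified genes fell, with log2 differences of -7.80 for Krtdap, -6.76 for Krt14, -6.49 for Krt6b and -5.84 for Sprr3. For 30 of the 36 genes every K19-Nog/C2mE mouse was below every K19-C2mE mouse, as was so for 10.1% of all genes, and for Dsc2 every one was above, as for 7.96% of all genes. In K19-Wnt1/C2mE 23 genes fell against K19-C2mE, beside 4.44% of all genes, and none rose (3.44% of all genes), with a median of -1.81. The most negative differences were those of Krtdap (-4.32), Krt1 (-4.09), Krt4 (-3.54), Sprr3 (-3.29) and Lor (-3.24), while Krt13 and Krt6b, which rose against wild-type in both genotypes, did not pass this test. That count rested on single K19-C2mE mice: 8 genes fell without K19-C2mE 1 and 5 without K19-C2mE 3, and 3 fell when only the genotypes compared were fitted.

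Between the double transgenic genotypes, 8 genes were higher in K19-Wnt1/C2mE than in K19-Nog/C2mE, beside 7.71% of all genes, and 1 was lower, beside 5.08%. The higher ones were the basal keratins Krt14 (4.15), Krt5 (2.73) and Krt15 (2.62), the spinous genes Krt6b (3.65), Calml3 (2.92), Krt6a (2.21) and Pkp1 (1.38), and Padi1 (0.52). Dsc2 was the lower one, at -0.64. Without K19-Wnt1/C2mE 1, 15 genes were called.

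The transgenes without C2mE left the squamous genes low. No gene of the 36 passed the test in K19-Wnt1 or in K19-Nog against wild-type with limma, and none had an unadjusted p under 0.05, while the methods' t-test gave 2 at an unadjusted p under 0.05 in K19-Wnt1. Of all genes 0.00% rose and 0.0110% fell in K19-Wnt1, and 2.12% rose and 0.945% fell in K19-Nog. The median changes were -0.16 and -0.27, and the most negative ones were those of Krtdap, -1.73 in K19-Wnt1 and -2.07 in K19-Nog, neither of which passed the test (adjusted p = 0.866 and 0.537). Wild-type 2 raised the wild-type mean of Krtdap, at 9.12 against 4.48 and 4.59 in the other wild-type mice. The Krtdap mean was 4.34 in K19-Wnt1 and 3.99 in K19-Nog mice. Against the matching background without C2mE, 23 genes were higher in K19-Wnt1/C2mE than in K19-Wnt1 (22.8% of all genes, median 1.61) and none was lower (21.8%), and 5 were higher in K19-Nog/C2mE than in K19-Nog (14.0%, median 0.05) and none was lower (13.7%). The 5 were Serpinb5, Sfn, Ly6d, Ivl and Dsc2.

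Whether the C2mE effect differed with the second transgene was tested as an interaction. With noggin it was smaller for 7 genes, beside 1.19% of all genes, and larger for none (0.0275%): Krt14 (-6.34), Calml3 (-4.65), Krt15 (-4.57), Krt5 (-4.56), Sprr2d (-3.47), Tgm1 (-3.01) and Padi1 (-1.51), with adjusted p from 0.000173 to 0.0347. With Wnt1 it was smaller for 3, beside 0.989% of all genes, and larger for none (0.522%): Krt15 (-2.11, adjusted p = 0.0482), Trp63 (-0.89, adjusted p = 0.032) and Padi1 (-0.88, adjusted p = 0.0091). Both counts depended on single arrays. The noggin count was 3 without either K19-Nog mouse, 4 without wild-type 1, wild-type 3, K19-C2mE 3 or K19-Nog/C2mE 1, and 14 without K19-C2mE 2. Leaving out K19-C2mE 3, mouse 2 or mouse 4 of K19-Wnt1, or wild-type 1 gave a Wnt1 count of 1. It was 5 without K19-Wnt1/C2mE 2 and 11 without K19-C2mE 2.

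Other genes of squamous epithelium were also called most often in K19-C2mE. Against wild-type, 15.4% of all genes rose in K19-C2mE, 21.1% in K19-Wnt1/C2mE and 16.0% in K19-Nog/C2mE, and 13.7%, 22.5% and 16.6% fell. These shares stand beside every count against wild-type in the lists below. Of 27 measured genes of the cornified envelope and barrier outside the 37, K19-C2mE had 21 higher and 1 lower than wild-type, K19-Wnt1/C2mE had 6 higher and 1 lower, and K19-Nog/C2mE had 3 higher and 1 lower. In K19-C2mE the dermokine gene Dmkn rose by 5.98, repetin (Rptn) by 5.59, Csta1, a cystatin A gene, by 5.04 and Crct1 by 4.80. Dmkn also rose by 5.68 in K19-Wnt1/C2mE. The gene that fell in all 3 genotypes was Casp14, the caspase of cornifying cells, with changes of -0.32 in K19-C2mE, -0.41 in K19-Wnt1/C2mE and -0.34 in K19-Nog/C2mE. Of 11 proteases and inhibitors of squamous epithelium, 9 rose in K19-C2mE and 0 in each of the others. They included Spink5, which encodes the kallikrein inhibitor LEKTI (4.53), Serpinb2 (3.01), Klk13 (2.58) and Klk10 (2.06).

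Of 11 genes of basal adhesion and the hemidesmosome, which ties basal cells to the basement membrane, K19-C2mE had 8 higher and 1 lower than wild-type, K19-Wnt1/C2mE 6 higher and 1 lower, and K19-Nog/C2mE 4 higher and 2 lower. Among all genes 15.4%, 21.1% and 16.0% rose in that order, and 13.7%, 22.5% and 16.6% fell. Col17a1, the hemidesmosomal collagen, rose by 3.70 in K19-C2mE and 1.22 in K19-Wnt1/C2mE. The laminin chain Lama3 rose by 2.52 in K19-C2mE, 2.49 in K19-Wnt1/C2mE and 2.19 in K19-Nog/C2mE. Integrins Itga3 and Itgb4 rose by 1.25 and 1.17 in K19-C2mE, and dystonin (Dst) fell by 1.28. Of 8 further desmosome genes 4 rose in K19-C2mE (Dsg1b by 2.34, Cdsn, which encodes corneodesmosin, by 2.13, Dsc1 by 1.43 and Pkp3 by 1.10), 2 in K19-Wnt1/C2mE and 3 in K19-Nog/C2mE.

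Of 17 transcription factors and Notch pathway genes known in squamous differentiation, K19-C2mE had 10 higher and 0 lower than wild-type, K19-Wnt1/C2mE 7 higher and 3 lower, and K19-Nog/C2mE 3 higher and 2 lower. Among all genes 15.4%, 21.1% and 16.0% rose in that order, and 13.7%, 22.5% and 16.6% fell. Hopx (2.63), Grhl3 (2.49), Sox2 (2.09) and Ehf (2.0) rose most in K19-C2mE. Sox2, Ehf and Klf5, which also act in glandular epithelium, were the 3 that rose in K19-Nog/C2mE, by 1.65, 1.61 and 1.90. Klf4 fell by 0.78 and Grhl1 fell by 1.02 in K19-Wnt1/C2mE.

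The genes whose pattern over the 21 arrays was most like the mean of the 36 were Lypd3 (Pearson r = 0.986), Cnfn (0.98), Csta1 (0.98), Fads2b (0.977) and Rptn (0.976). They were followed by Scel, Pinlyp, Spink5, Trim29, Serpinb2, Serpinb11, Crabp2, Crct1, Slc5a1 and Asprv1, with r from 0.975 down to 0.957. Of these 15 genes, Cnfn, Csta1, Rptn, Scel, Spink5, Serpinb2, Crct1 and Asprv1 also stood in the lists above. The arrays share their genotypes, so these values describe likeness only.

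Markers of other tissues were read on the same arrays, beside the same shares of all genes. Of 14 striated muscle genes, which the wall of the mouse oesophagus expresses, Tnni2 rose in K19-C2mE (by 0.85) and in K19-Nog/C2mE (by 0.69), and 0 genes fell in K19-C2mE and 2 in each of the others. Their mean log2 signal was 5.01 to 5.04 in K19-C2mE and also in wild-type mice, and their summed signal was 803 to 959 in K19-C2mE, 635 to 805 in K19-Wnt1/C2mE and 825 to 852 in K19-Nog/C2mE mice, against 676 to 734 in wild-type mice. Of 6 simple epithelium keratins 5 rose in K19-C2mE, 3 in K19-Wnt1/C2mE and 5 in K19-Nog/C2mE, led by Krt7 (3.62, 3.82 and 3.49 in that order) and Krt20 (2.68, 2.31 and 2.66). Of 6 genes listed for parietal cells 3 fell in K19-C2mE and all 6 in K19-Wnt1/C2mE and in K19-Nog/C2mE. Their summed signal was 4517 to 28558, 2211 to 17875 and 1239 to 8797 in these genotypes, against 75111 to 78217 in wild-type mice. Of 5 mucous cell genes Tff2 rose in all 3 C2mE genotypes, by 0.65, 0.77 and 0.62 in that order, and Muc5ac (-4.50) and Gkn1 (-0.19) fell in K19-Wnt1/C2mE. Of 5 Langerhans and dendritic cell genes none was called in K19-C2mE, where Cd207 changed by 0.02. Flt3 (-0.31) and Xcr1 (-0.42) fell in K19-Wnt1/C2mE, and in K19-Nog/C2mE Itgax rose by 1.04 and Xcr1 fell (-0.30). The part of these cell types in the squamous values was not tested.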

How the data were processed

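RNA of the glandular stomach of 21 mice was hybridised to 1 array each, and genotypes were taken from the sample labels. The authors summarised the arrays with RMA and deposited the resulting intensity of every probe set on a linear scale. They also deposited log10 ratios, which equal the log10 of each intensity over the mean wild-type intensity, limited to 2 either way, and which served as an alternative. No read depth applies to arrays, and the number of mice limits the precision.

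Here log2 of the intensity was used without a filter. The array annotation names a single gene for 34945 of the 45037 probe sets, more than 1 gene for 932 and no gene for 9160, and only the first kind was named. limma 3.58.1 in R 4.3.3 (with data.table, version 1.17.8) was fitted on all 21 arrays and all probe sets with 1 coefficient per genotype. The brightest probe set then stood for each of 18193 genes, over which p was adjusted (Benjamini-Hochberg). The study's methods name a t-test, which was run as an alternative. The fit was tested on simulated data with known changes. Counts, promoters and figures were made in Python 3.11.15 with pandas 2.3.3, numpy 2.4.6 and matplotlib 3.10.9.

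The 37 genes, their layers and the 10 further gene lists were chosen with earlier results of these data known. Values on every array of the C2mE genotypes and wild-type are given for the 4 genes of each layer with the largest change in K19-C2mE. The same holds for every gene called in K19-Nog/C2mE and for Trp63. From each further list up to 4 genes with the largest change in K19-C2mE were named, and others named beside them (such as Casp14, Klf5, Klf4 and Grhl1) were chosen after their values were seen. The 15 genes with the highest correlation to the mean of the 36 were named as most alike. Alternatives were a 2-fold change as well, dim probe sets left out, a fit of only the genotypes compared, the mouse number as a block, the t-test, the ratio table, the mean of probe sets, leaving out the arrays with high Y-linked signal, and leaving out each array in turn. Nothing says how mice were paired or when arrays were run.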

Additional observations from a re-analysis of the deposited data

Results flagged for a closer look

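In K19-Wnt1/C2mE mouse 2 stood far above the other four mice for Perp, Krt16, Krt78 and Sprr1b. The gap to the nearest mouse took up 0.804, 0.899, 0.757 and 0.845 of the genotype's whole range, above the critical value for 5 samples. Krt16 was at 8.71 in this mouse and at 4.66 in the next. Of 72 sets of values tested in this way, 4 stood out, all through this mouse; chance alone marks about 1 set in 20.

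The C2mE effect differed with noggin for Krt14 (-6.34), Calml3 (-4.65), Krt15 (-4.57), Krt5 (-4.56), Sprr2d (-3.47), Tgm1 (-3.01) and Padi1 (-1.51), as log2 differences of the change with noggin minus the change without it. With Wnt1 it differed for Krt15 (-2.11), Trp63 (-0.89) and Padi1 (-0.88). Krt15 and Padi1 appear in both tests, which share the K19-C2mE and wild-type arrays.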

How the results depend on the processing

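Counts below are of the 36 genes called. With a 2-fold change also required, 1 gene was called in the interaction of Wnt1 with C2mE. With dim probe sets left out, 1 was called in that interaction and 4 in the interaction of noggin with C2mE. When only the genotypes compared were fitted, 3 were called in K19-Wnt1/C2mE against K19-C2mE, 12 in K19-Nog/C2mE against K19-C2mE and 3 in K19-Wnt1/C2mE against K19-Nog/C2mE. The methods' t-test after Benjamini-Hochberg adjustment called 13 in K19-C2mE and 5 in K19-Wnt1/C2mE against wild-type, 1 in K19-Nog/C2mE against K19-Nog, and 0 in each comparison between the C2mE genotypes. At an unadjusted p under 0.05 it called 14 in K19-Wnt1/C2mE against K19-C2mE and 2 in K19-Wnt1 against wild-type. Without the 9 arrays of high Y-linked signal, which leaves 1 mouse each of K19-C2mE, K19-Wnt1 and wild-type, assumed to vary like the other genotypes, 2 were called in K19-C2mE, 3 in K19-Wnt1/C2mE and 3 in K19-Nog/C2mE against wild-type. The same setting called 0 in K19-Wnt1/C2mE against K19-C2mE, 2 in K19-Nog/C2mE against K19-C2mE, 3 in K19-Wnt1/C2mE against K19-Nog/C2mE, 5 in K19-Wnt1/C2mE against K19-Wnt1 and 0 in either interaction. The changes of Krt13 (-0.75) and Calml3 (-0.084) in K19-Wnt1/C2mE against wild-type turned negative there. The cause was not tested, beyond the fewer mice.

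Leaving out each array in turn gave 27 to 32 in K19-C2mE, 9 to 19 in K19-Wnt1/C2mE, 5 to 5 in K19-Nog/C2mE, 0 to 0 in K19-Wnt1 and 0 to 0 in K19-Nog against wild-type. It gave 5 to 26 in K19-Wnt1/C2mE and 18 to 28 in K19-Nog/C2mE against K19-C2mE, 6 to 15 in K19-Wnt1/C2mE against K19-Nog/C2mE, 19 to 24 in K19-Wnt1/C2mE against K19-Wnt1, 4 to 5 in K19-Nog/C2mE against K19-Nog, 1 to 11 in the interaction with Wnt1 and 3 to 14 in that with noggin. Over all alternatives for single genes, 740 values kept their call, 95 lost it and 2 changed sign.

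The correlation of deviations over 38 same-numbered pairs of arrays ran from -0.42 to 0.274, with 8 over 0.1. Pairs of different numbers were not computed, so whether mouse numbers pair the samples cannot be told from this range. With the number as a replicate block, 10 genes were called in K19-Wnt1/C2mE against K19-C2mE, 30 in K19-C2mE and 10 in K19-Wnt1/C2mE against wild-type.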
